A study of Mus musculus with 54 samples.

Results

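The regions described are 510 stretches of open chromatin that the authors' tables class as accessible in wild-type (Wt) mouse B-cell progenitors but closed in Ebf1-deficient (Ebf1-KO) ones and place outside promoters, and that overlapped, by 1 bp or more, none of the 1172 regions listed as bound by Ebf1. They were taken from 785 listings of the Wt-only, non-promoter class, which hold 751 distinct regions, and they make up 510 of the 3642 distinct regions of the histone tables and of the 4829 of the accessibility table. The authors name both sets as accessible regions of genes enriched in Wt cells, so "all regions" below is not the whole genome. The remaining 241 distinct regions of the class overlapped an Ebf1-bound region and serve as a comparator, as do 1542 non-promoter regions open in both Ebf1-KO and Wt cells that overlapped none. The Ebf1-bound regions come from the 230-238 cell line and from the lists deposited with the tables, so binding of Ebf1 outside those lists was not analysed here.

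Ebf1 is a transcription factor that commits lymphoid progenitors to the B lineage, and E2A, encoded by Tcf3, acts upstream of it and together with it. Active enhancers carry H3K4me2 and H3K27ac and often bind RNA polymerase II, promoters carry H3K4me3, and H3K27me3 is laid down by the Polycomb complex at silent genes. Fli1 is an Ets-family factor of blood stem cells and progenitors, and Ikzf1 (Ikaros) is a zinc-finger factor that acts as both an activator and a repressor in lymphocytes. Regions that close without Ebf1 and yet are not on a list of its binding sites can be read through these marks.

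Cells were labelled as ProB cells of C57BL6/J fetal liver and had been expanded on OP9 stroma with KIT ligand, FLT3 ligand and IL-7. The groups used here were E2A-KO and Wt cells for ATAC-seq (accessibility, 3 labelled samples per genotype), and Ebf1-KO and Wt cells for ChIP-seq of H3K4me3 and H3K27me3 (2 labelled samples per genotype), ChIP-seq of H3K4me2 and RNA polymerase II (PolII) and CUT&RUN of H3K27ac (1 per genotype), with Fli1 and Ikzf1 ChIP-seq in Wt cells (1 each). The 230-238 line, an Abelson-virus-transformed progenitor B line that is 1 line and not primary cells, supplied the Ebf1-bound list and the H3K4me3 PLAC-seq contacts, which join distant stretches of DNA to H3K4me3-marked ones. Each genotype has 1 column of values per measure in the deposited tables, so there were no replicates to give a spread, and all differences compare these columns. Intervals of medians and shares reflect the spread over regions, and those of single values and fold changes reflect counting error. None covers variation between samples.

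Library sizes ranged from 24557525 tags (Wt H3K27ac) to 196071042 tags (Ebf1-KO H3K4me3), and all values are tags per region scaled to a library of 10000000. Promoter regions near B-lineage markers present in the tables had less H3K4me3 in Ebf1-KO than in Wt cells, with 3.01 and 93.96 tags at Cd79a (a subunit of the B-cell receptor), 4.49 and 63.68 tags at Igll1 (a surrogate light chain), 2.04 and 51.02 tags at Vpreb1 (its partner) and 4.18 and 30.14 tags at Pax5 (the B-lineage commitment factor). The promoter region of Lyz2 (lysozyme) had 6.94 tags in Ebf1-KO and 1.44 tags in Wt cells, the only promoter region present for the 7 myeloid markers. None was present for the 8 T-cell, 5 innate, 4 erythroid and 4 stromal markers or for Cd79b and Blnk. The authors' selection of genes enriched in Wt cells limits which markers can have a region. Absence of a marker was therefore not read as a trait of the cells. The Ebf1 promoter region had 126.13 tags of H3K4me3 in Ebf1-KO and 59.9 tags in Wt cells, which does not check the deletion. Whether other cell types contributed to any difference below was not tested.

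Sequences were available from RefSeq (GRCm38.p6) only at the few members that reach a transcription start: 14 of the 32851 promoter windows in the table overlapped a member. The 4 stretches of at least 150 bases that lie upstream of the annotated start and inside a member are shown, because they are the members whose sequence can be set beside the marks described further on. They were searched on both strands for the Ebf1 palindrome (TCCC and GGGA with any 2 bases between them), CAGCTG and CAGGTG (E-boxes, the kind of site E2A binds), AGGAAG (the Ets core, as Fli1 binds) and TGGGAA (the Ikaros core), and capitals mark a match. Neu3 encodes a sialidase of the plasma membrane, Il33 a cytokine of the interleukin-1 family, and Pydc4 is an interferon-inducible gene of the HIN-200 group that RefSeq calls Ifi213. Ddx3y is an RNA helicase gene of the Y chromosome.
Il33 (chr19:29945567-29945789, plus strand, 223 bases): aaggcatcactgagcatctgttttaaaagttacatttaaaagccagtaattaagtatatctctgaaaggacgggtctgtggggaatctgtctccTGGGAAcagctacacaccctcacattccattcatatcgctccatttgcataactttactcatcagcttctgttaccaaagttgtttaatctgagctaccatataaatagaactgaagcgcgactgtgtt
Neu3 (chr7:99828418-99828641, minus strand, 224 bases): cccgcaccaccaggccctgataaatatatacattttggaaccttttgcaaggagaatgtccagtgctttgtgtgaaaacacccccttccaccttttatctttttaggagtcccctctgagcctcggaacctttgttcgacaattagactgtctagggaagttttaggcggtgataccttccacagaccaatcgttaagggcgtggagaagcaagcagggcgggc
Pydc4 (chr1:173599273-173599425, minus strand, 153 bases): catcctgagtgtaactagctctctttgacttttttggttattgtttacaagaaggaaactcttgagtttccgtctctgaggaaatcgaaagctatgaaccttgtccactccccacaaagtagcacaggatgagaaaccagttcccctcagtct
Ddx3y (chrY:1286614-1286820, minus strand, 207 bases): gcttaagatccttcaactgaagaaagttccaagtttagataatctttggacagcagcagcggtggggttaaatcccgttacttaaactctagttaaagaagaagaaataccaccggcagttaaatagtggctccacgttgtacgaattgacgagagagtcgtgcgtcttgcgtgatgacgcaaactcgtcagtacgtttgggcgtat
The Il33 stretch held 1 TGGGAA, and the other 3 held none of the 5 motifs. Over the last 223 bases before the start, 19.4% of all windows held TGGGAA or its complement. Whole windows held the Ebf1 palindrome in 0.904%, CAGCTG in 16.3%, CAGGTG in 20.2%, AGGAAG in 35.4% and TGGGAA in 25.6%, so a match is common for every motif except the palindrome.

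The regions were chosen by their ATAC accessibility in Ebf1-KO and Wt cells, so those values are given only as a description. Accessibility in Wt cells ranged from 5.01 to 103.52 tags with a median of 8.32. Among the 1187 regions of the accessibility table that are in none of the histone tables, the highest Wt value was 4.94 tags, just below the lowest member. The Ebf1-KO side of that choice is not analysed here, because no labelled sample corresponds to its column. Most members sat near the low end of tags per region: 319 had under 10 tags and 61 had 20 or more. They were short, with a median length of 359 bp (159 to 1487), against 634 bp for Ebf1-bound regions of the class and 701 bp for regions open in both genotypes. By the authors' annotation 275 lay in introns, 201 were intergenic, 11 were at transcript ends, 10 in exons, 7 in 5′ UTRs, 5 in 3′ UTRs and 1 in a non-coding gene. The median distance to a transcription start was 10520 bp, although 16 members had a centre within 500 bp of one, so that "distal" does not describe every member.

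Marks of active chromatin were lower in Ebf1-KO cells at most members. H3K4me2 had a median of 2.64 tags in Ebf1-KO and 10.45 tags in Wt cells, with a median log2 ratio of −1.28 (95% interval of the median −1.43 to −1.14) on the log2((Ebf1-KO + 1)/(Wt + 1)) scale used throughout. H3K27ac, the enhancer acetylation mark, had medians of 2.96 and 10.18 tags in Ebf1-KO and Wt cells (log2 −1.34, −1.46 to −1.24). PolII had medians of 2.05 tags in Ebf1-KO and 6.63 tags in Wt cells (log2 −1.29, −1.42 to −1.12). The drop was smaller for the promoter mark, H3K4me3, with 1.94 tags in Ebf1-KO and 5.48 tags in Wt cells (log2 −0.88, −1.04 to −0.74).

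**Figure D1:**
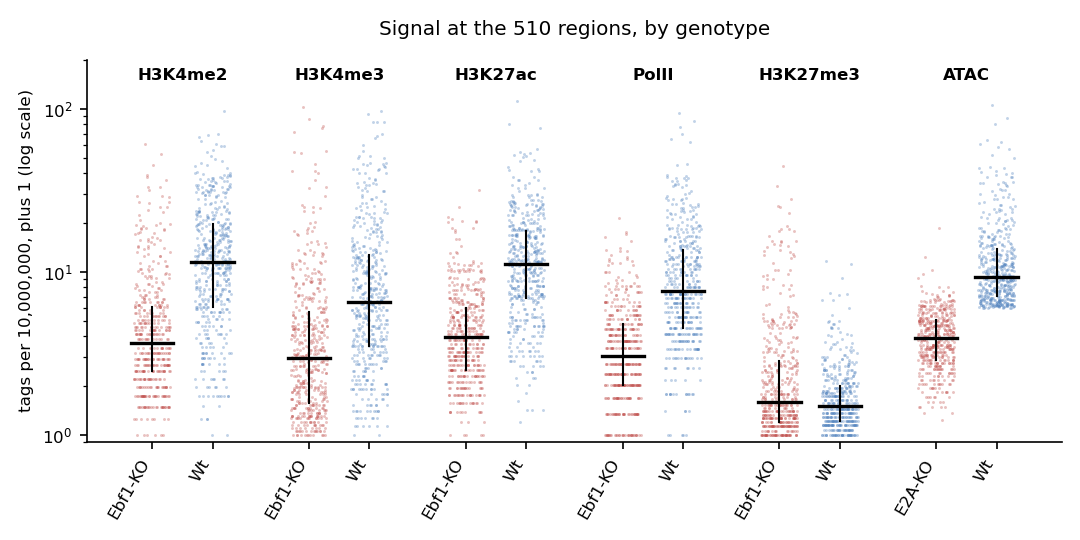
Tags per region plus 1 on a log axis at the 510 regions (points) for each measure, with the mutant (red; Ebf1-KO for the marks and PolII, E2A-KO for ATAC) left of Wt (blue); the black line is the median and the bar spans the quartiles. H3K4me2, H3K27ac, PolII and E2A-KO ATAC medians lie between 2.05 and 2.96 tags in the mutants and between 6.63 and 10.45 tags in Wt, while H3K27me3 medians are 0.58 and 0.50 tags.

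Counted region by region, H3K4me2 was at least 2-fold lower in Ebf1-KO cells at 305 members (59.8%; 30.3% of all histone-table regions) and at least 2-fold higher at 10 (7.58% of all regions). H3K27ac was at least 2-fold lower at 332 members (65.1%; 37.4% of all regions) and higher at 5 (1.15% of all regions). PolII was at least 2-fold lower at 302 members (59.2%; 39.7% of all regions) and higher at 16 (7.03% of all regions). H3K4me3 was at least 2-fold lower at 236 (46.3%; 25.2% of all regions) and higher at 36 (15.4% of all regions). For each active measure the share lower was above that of all regions.

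All regions together were themselves shifted, with median log2 ratios of −0.70 for H3K27ac, −0.67 for PolII, −0.18 for H3K4me2 and 0.02 for H3K4me3. They are regions of genes enriched in Wt cells and not a genome-wide background, for these medians and for the TMM factors below. How much of the shift is technical was not tested. Relative to the medians of all regions, the members' medians were −1.10 for H3K4me2, −0.90 for H3K4me3, −0.64 for H3K27ac and −0.62 for PolII. After TMM factors, which centre each pair of columns on the bulk of regions, PolII was at least 2-fold lower at 217 members (42.5%, against 25.7% of all regions) and higher at 39 (7.65%, against 18.4% of all regions), and H3K27ac was lower at 202 (39.6% of members, against 19.3% of all regions).

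The same class with Ebf1 bound showed larger drops, with median log2 ratios of −2.38 for H3K4me2, −1.69 for H3K4me3, −2.07 for H3K27ac and −2.32 for PolII. Regions open in both genotypes had 0.10, 0.31, −0.41 and −0.33 for the same measures in that order, of which H3K27ac and PolII turned positive (0.28 and 0.30) with TMM factors. Members thus lay between these comparators for every active measure. Among regions of 500 to 1000 bp only, where lengths are alike, 138 members gave −1.91 for H3K4me2, −1.28 for H3K4me3, −1.53 for H3K27ac and −1.49 for PolII. The 131 Ebf1-bound regions of that length gave −2.41, −1.71, −2.18 and −2.41 in that order, and the 736 regions open in both gave 0.05, 0.34, −0.42 and −0.29.

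**Figure D2:**
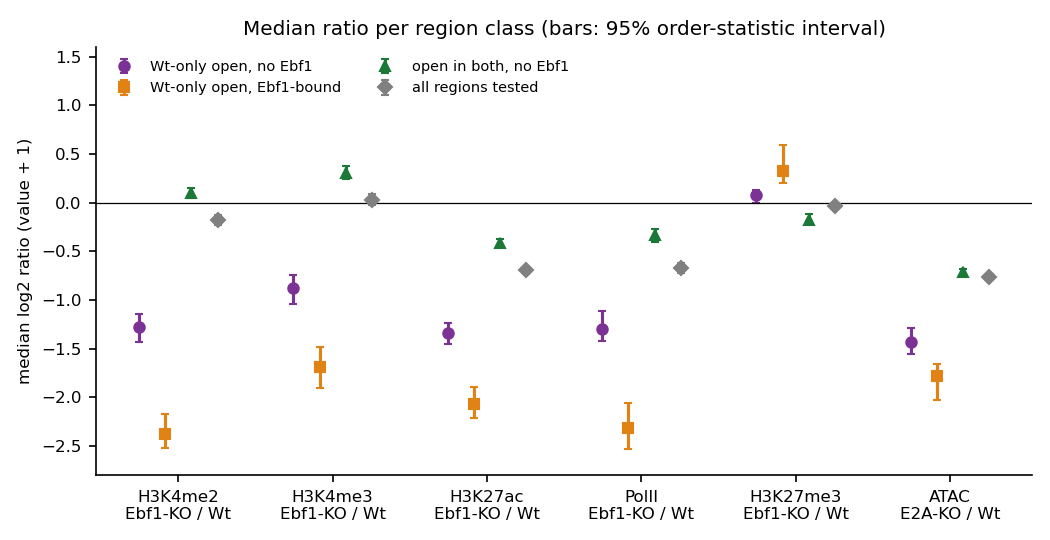
Median log2 ratio of the mutant (Ebf1-KO; E2A-KO for ATAC) over Wt, with 95% order-statistic intervals, for members, Ebf1-bound regions of the class, regions open in both genotypes without Ebf1 and all regions. For H3K4me2 the medians are −1.28, −2.38, 0.10 and −0.18 in that order.

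Loss of several marks at one region was common. Of the 4 active measures, all 4 were at least 2-fold lower at 134 members (26.3%; 13.7% of all regions), and none at 78 (15.3%; 42.3% of all regions), with 1 to 3 of them lower at the rest. The same count of 4 was reached at 51.5% of Ebf1-bound regions of the class and at 3.44% of regions open in both. Across the 510 members, log2 ratios of H3K4me2 and H3K4me3 correlated at Pearson 0.61 and those of H3K4me2 and H3K27ac at 0.56, a description over regions that share the same libraries.

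The Polycomb mark H3K27me3 was low at most members, with medians of 0.58 tags in Ebf1-KO and 0.50 tags in Wt cells (log2 0.08, 0.00 to 0.13). It was at least 2-fold higher in Ebf1-KO cells at 98 members (19.2%, against 16.9% of all regions) and lower at 11 (4.67% of all regions). The share higher was close to that of all regions before matching for length. Values of 5 tags or more were reached at 48 members (9.41%; 14.5% of all regions) in Ebf1-KO and at 8 (1.57%; 4.15% of all regions) in Wt cells. Members with both a 2-fold rise and 5 tags in Ebf1-KO numbered 46 (9.02%; 11.5% of all regions), against 19.9% of Ebf1-bound regions of the class and 6.42% of regions open in both. These counts are over regions of any length, and members were shorter than both comparators. Among regions of 500 to 1000 bp, H3K27me3 was at least 2-fold higher at 22.5% of 138 members and 15.3% of all regions. The share at that length was 37.4% of Ebf1-bound regions of the class and 8.56% of regions open in both. Counts past 5 tags were not matched for length. The H3K27ac and H3K27me3 ratios correlated at −0.38 over the 510 members, with the same libraries behind every point.

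Accessibility in E2A-KO cells was lower than in Wt cells, by any amount, at 507 members (99.4%; 87.3% of all accessible regions). The medians were 2.91 tags in E2A-KO and 8.32 tags in Wt cells (log2 −1.43, −1.56 to −1.29). It was at least 2-fold lower at 345 members (67.6%; 37.6% of all accessible regions) and at least 2-fold higher at 0 (1.01% of all accessible regions). The Wt column enters both this ratio and the choice of regions, so the ratio is not independent of that choice. The headers of the E2A-KO and Wt ATAC columns also name different processing, and its effect on the ratio was not tested. All accessible regions had a median of −0.76, and the members' median relative to that was −0.67. All accessible regions include the 1187 with at most 4.94 tags in Wt cells, of which 7.33% were at least 2-fold lower. The 3642 histone-table regions, like members, all had 5.01 tags or more in Wt cells, and their median was −0.95. Of these 3642, 47.5% were at least 2-fold lower and 93.6% lower by any amount. With TMM factors 187 members (36.7%) were lower, against 14.8% of all accessible regions. The Ebf1-bound regions of the class had a median of −1.78 and regions open in both −0.72, which turned to 0.11 with TMM factors.

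The classes differ in Wt tags per region, so they were also compared within bands of these tags. Per kb of region the Wt medians were alike, at 24.4 tags for members, 25.3 for Ebf1-bound regions and 25.5 for regions open in both. Members were shorter, so the bands do not separate accessibility from region length. Between 5 and 10 tags in Wt cells, E2A-KO log2 ratios had medians of −1.03 at members, −1.03 at Ebf1-bound regions of the class and −0.31 at regions open in both. Between 10 and 20 tags they were −1.84, −1.75 and −0.62 in that order, and at 20 tags or more they were −2.83, −2.91 and −1.08. In each band members and Ebf1-bound regions lay close together and both lay below regions open in both. The other measures fell further with the Wt level as well: from the lowest to the highest band members' medians were −0.98, −1.59 and −2.41 for H3K4me2, −0.67, −1.08 and −1.98 for H3K4me3, −1.06, −1.76 and −2.52 for H3K27ac, and −0.99, −1.76 and −2.62 for PolII. Ebf1-bound regions of the class had −1.72, −2.41 and −3.01 for H3K4me2, −1.27, −1.75 and −2.07 for H3K4me3, −1.27, −2.14 and −2.93 for H3K27ac, and −1.17, −2.33 and −3.17 for PolII. Within each band the members' medians were less negative than those of Ebf1-bound regions, closely so for PolII and H3K27ac in the lowest band and for H3K4me3 in the highest.

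The 345 members that were at least 2-fold less open in E2A-KO cells also lost more of the active marks in Ebf1-KO cells than the other 165. Median log2 ratios at the 345 and at the other 165 were −1.73 and −0.55 for H3K4me2, −1.68 and −0.79 for H3K27ac, −1.76 and −0.46 for PolII, and −1.28 and −0.40 for H3K4me3. The E2A-KO ATAC ratio correlated at 0.61 with the H3K27ac ratio and at 0.57 with the PolII ratio over the 510 members. The Wt ATAC column enters the E2A-KO ratio and the choice of regions, and the drops in the marks were also larger at higher Wt ATAC levels.

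Members lay closer to Ebf1-bound regions than did regions open in both. The median distance was 18784 bp (lowest 28 bp) for members and 41895 bp for regions open in both. Up to 1 kb from an Ebf1-bound region lay 91 members, 125 lay over 1 to 10 kb away, 158 over 10 to 100 kb and 136 farther, which includes 3 on chromosome Y, where no Ebf1-bound region is listed. H3K4me2 medians in these bins were −1.59, −1.55, −1.14 and −1.18, and H3K4me3 medians −1.50, −0.87, −0.70 and −0.86. PolII (−1.38, −1.44, −1.13 and −1.26), H3K27ac (−1.33, −1.51, −1.35 and −1.17) and E2A-KO ATAC (−1.31, −1.47, −1.42 and −1.57) were about as low beyond 100 kb as within 1 kb. Regions open in both and within 1 kb of an Ebf1-bound region had medians of 0.02 for H3K4me2, 0.02 for H3K4me3, −0.53 for H3K27ac and −0.57 for PolII. The nearest gene was also nearest to a listed Ebf1-bound region for 294 members (57.6%; 62.4% of all regions). The share was 44.7% of regions open in both. Ebf1-bound regions of the class overlap the listed regions themselves, so their 97.1% is nearly fixed by definition. All regions include such regions, so the 62.4% is not a like comparison for members.

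**Figure D3:**
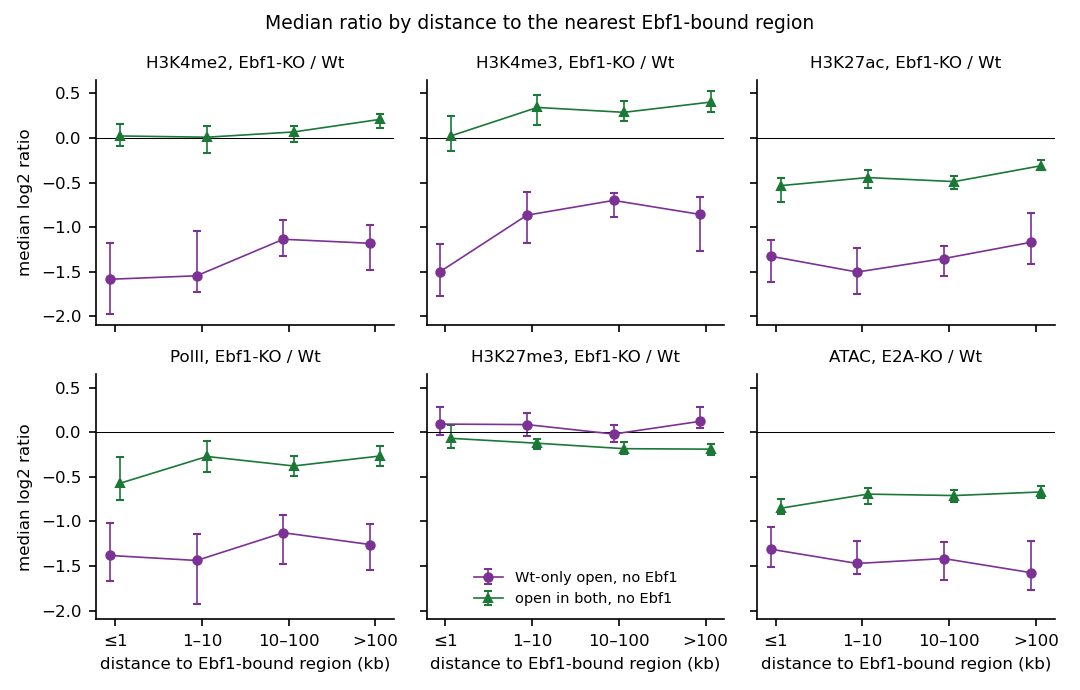
Median log2 ratio of the mutant over Wt, with 95% order-statistic intervals, by distance to the nearest Ebf1-bound region for members (purple circles) and regions open in both genotypes (green triangles). Members lie below regions open in both in every distance bin for the 4 active measures and for E2A-KO ATAC.

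Fli1 peaks in Wt cells overlapped 131 members (25.7%, Wilson 95% interval 22.1 to 29.7), against 36.8% of all accessible regions and 47.6% of the 3642 histone-table regions. The share was 53.5% at Ebf1-bound regions of the class and 41.2% at regions open in both. It rose with Wt tags per region, being 15.4%, 40.0% and 49.2% of members from the lowest to the highest band. In the same bands it was 28.4%, 54.3% and 78.5% of Ebf1-bound regions and 14.0%, 33.5% and 66.0% of regions open in both. At like Wt tags per region, members were thus below the Ebf1-bound regions in every band. They were below regions open in both only in the highest. The bands were not matched for region length. Members with a Fli1 peak had medians of −1.81 for H3K4me2 and −1.85 for PolII, against −1.13 and −1.12 without one, and of −1.74 against −1.28 for E2A-KO ATAC; their Wt ATAC medians were 11.84 and 7.67 tags.

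Ikzf1 peaks overlapped 30 members (5.88%, 4.15 to 8.27), of which 18 also had a Fli1 peak. The Ikzf1 share was 11.8% of all accessible regions and 15.5% of the 3642 histone-table regions. It was 17.4% of Ebf1-bound regions of the class and 10.4% of regions open in both. By Wt level the shares were 2.82%, 8.46% and 16.4% of members, 2.47%, 13.6% and 36.7% of Ebf1-bound regions and 0.69%, 5.21% and 21.2% of regions open in both. The 30 members with an Ikzf1 peak had medians of −2.02 for H3K27ac, −2.25 for PolII and −2.18 for E2A-KO ATAC, against −1.29, −1.20 and −1.35 at the 480 without one. In E2A-KO cells 28 of the 30 were at least 2-fold less open (67.6% of all members; 37.6% of all accessible regions), and in Ebf1-KO cells H3K27me3 was at least 2-fold higher at 13 (19.2% of all members; 16.9% of all regions). Their Wt ATAC median was 12.81 tags, against 8.10 tags for the 480, and the part of that level in the difference was not tested beyond the bands above.

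**Figure D4:**
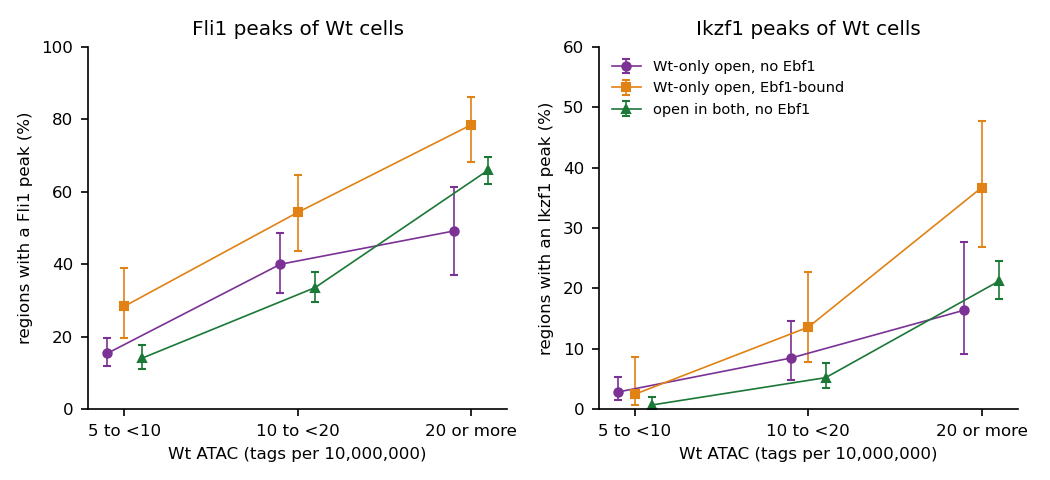
Percent of regions that overlap a Fli1 or an Ikzf1 peak of Wt cells, by Wt ATAC level, with Wilson 95% intervals, for members, Ebf1-bound regions of the class and regions open in both genotypes. Fli1 shares of members are 15.4%, 40.0% and 49.2% from the lowest to the highest level.

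In the 230-238 line, every member overlapped an ATAC peak, as did all 4829 regions. An H3K4me3 PLAC-seq contact of the line covered the 5 kb bin of 454 members (89.0%; 89.0% of all regions), so presence of a contact did not set them apart. The bin of 71 members (13.9%) was joined to the promoter of the nearest gene, against 11.0% of all regions, and 280 (54.9%) to some promoter in the tables, against 56.6% of all regions. For 235 members (46.1%) the partner bin held an Ebf1-bound region, against 44.0% of all regions.

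The most accessible member lay between genes upstream of Klhl14, a kelch-family protein (chr18:21675127-21676458; mm10 coordinates here and below). Its accessibility was 7.00 tags in E2A-KO and 103.52 tags in Wt cells, 14.8-fold lower (counting interval 11.4 to 19.5). In Ebf1-KO and Wt cells it had 4.32 and 95.96 tags of H3K4me2, 5.92 and 110.96 of H3K27ac, 2.74 and 83.50 of PolII, 1.53 and 41.76 of H3K4me3, and 6.86 and 1.36 of H3K27me3. An intronic region of the same gene (chr18:21654320-21655486) had the highest H3K27me3 in Ebf1-KO cells of any member, 43.61 tags against 1.07 in Wt cells, and 1.92 against 59.52 tags of H3K4me2. A further Klhl14 region (chr18:21728661-21729407) had 0.34 tags of PolII in Ebf1-KO and 32.00 in Wt cells and 5.37 against 0.21 tags of H3K27me3. The nearest Ebf1-bound region to these lay 6870164 bp or more away, so all 3 Klhl14 members were far from any listed Ebf1-bound region.

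At an intergenic region nearest to Ufm1, which encodes a ubiquitin-like modifier (chr3:53974971-53975720), PolII was 2.05 tags in Ebf1-KO and 92.87 in Wt cells, 45.3-fold lower (20.5 to 125), and H3K27ac 5.55 and 74.93 tags. Its accessibility was 3.73 tags in E2A-KO and 86.23 tags in Wt cells, and it carried both a Fli1 and an Ikzf1 peak. The region nearest to Bcar3, an adaptor protein (chr3:122406471-122407054), had 3.73 tags of accessibility in E2A-KO and 79.14 in Wt cells, and 2.96 and 53.34 tags of H3K27ac and 1.03 and 37.07 of PolII in Ebf1-KO and Wt cells. It lay 692 bp from an Ebf1-bound region, carried both peaks and was joined to the Bcar3 promoter with a contact count of 80. Introns of Lrrk2, a kinase, (2.45 tags in E2A-KO and 57.42 in Wt cells) and of Rasgrp3, a Ras exchange factor downstream of antigen receptors (3.96 and 61.58 tags), were also among the 10 most open. At the Rasgrp3 region PolII was listed at 0 in Ebf1-KO and 12.10 tags in Wt cells. Every active measure was at least 2-fold lower in Ebf1-KO cells at these 10, except H3K4me3 at the intron of Prep, a peptidase. There H3K4me3 was 5.97 tags in Ebf1-KO and 2.35 tags in Wt cells. All 4 active measures were lower by that much at 26.3% of all members and 13.7% of all regions. These 10 were picked by Wt accessibility, with which the drops deepened, so nothing particular to them is read from the count.

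Among 28 genes of pre-B-cell receptor signalling, 17 had a region and 10 were nearest to a member (15 members). Of these 15, H3K27ac was at least 2-fold lower at 14, H3K4me2 and PolII at 11 each, H3K4me3 at 9 and E2A-KO ATAC at 13, with median log2 ratios of −1.99 for H3K27ac, −2.03 for H3K4me2, −1.75 for PolII, −1.65 for H3K4me3 and −1.73 for ATAC. Over all 510 members the shares lower were 65.1% for H3K27ac, 59.8% for H3K4me2, 59.2% for PolII, 46.3% for H3K4me3 and 67.6% for ATAC, and over all regions 37.4%, 30.3%, 39.7%, 25.2% and 37.6% in that order, and nothing particular to the list is read from its counts. At Cd79b, the partner of Cd79a in the receptor, the region 4431 bp downstream of its start (chr11:106309811-106310452) had 3.12 tags of H3K4me2 in Ebf1-KO and 46.40 in Wt cells, 2.41 against 42.55 of H3K27ac, 3.42 against 44.09 of PolII, and accessibility of 4.20 in E2A-KO against 42.27 in Wt cells (10.1-fold lower, 7.2 to 14.5). A region in the first Cd79b intron had 10.51 tags of H3K4me3 in Ebf1-KO and 91.87 in Wt cells (8.74-fold lower, 7.48 to 10.3). The region in the 5′ UTR of Blnk, the adaptor that links the receptor to its downstream enzymes (chr19:40993882-40994427), had 3.84 against 39.60 tags of H3K4me2 and 9.07 against 36.85 of H3K27ac in Ebf1-KO and Wt cells, with accessibility of 5.71 in E2A-KO and 38.56 in Wt cells (6.75-fold lower, 5.04 to 9.23). An intron of Btk, the kinase downstream of Blnk, had 1.17 tags of accessibility in E2A-KO and 17.30 in Wt cells, and was joined to the Btk promoter with a contact count of 55. Pik3ap1, an adaptor for PI3-kinase, went the other way for H3K4me3, with 17.09 tags in Ebf1-KO and 6.26 in Wt cells, while its accessibility was 3.38 tags in E2A-KO and 10.21 in Wt cells.

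Of 36 B-lineage transcription factors, 17 had a region and 6 were nearest to a member (11 members). H3K4me2 and H3K27ac were at least 2-fold lower at 10 of the 11, H3K4me3 and E2A-KO ATAC at 9 and PolII at 8, while H3K27me3 was higher at 6 (19.2% of all members; 16.9% of all regions). The shares lower over all members and all regions are those given for the receptor signalling genes. In the first intron of Pax5 (chr4:44709071-44709390) H3K4me3 was 1.22 tags in Ebf1-KO and 58.85 in Wt cells, 48.1-fold lower (31.9 to 75.8), and H3K27ac 2.59 and 19.34 tags. A second Pax5 region upstream of the start had 16.69 tags of H3K27me3 in Ebf1-KO and 0.29 in Wt cells. At an intron of Foxo1, a factor needed for B-cell development (chr3:52340410-52340976), H3K27me3 was 26.79 tags in Ebf1-KO and 1.15 in Wt cells and H3K4me2 1.68 and 10.69. In the first intron of Lef1, a mediator of Wnt signals expressed in pro-B cells (chr3:131113080-131113364), H3K4me3 was 4.23 tags in Ebf1-KO and 53.63 in Wt cells and H3K27me3 13.07 and 0.36. In the Fli1 gene, by contrast, an intronic region had more H3K4me3 (14.28 tags) and PolII (8.89) in Ebf1-KO than in Wt cells (4.05 and 5.46 tags), with accessibility of 4.08 tags in E2A-KO and 9.10 in Wt cells.

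Of 7 recombination genes, 5 had a region and 2 a member each, near Lig4, the ligase of end joining, and Rag1, which cuts antigen-receptor genes. The Lig4 region (chr8:9975351-9975610) had more H3K4me3, 32.23 tags in Ebf1-KO against 21.79 in Wt cells, and yet 3.08 against 34.73 tags of PolII and 1.67 against 17.51 of H3K27ac, with accessibility of 1.63 in E2A-KO and 28.87 in Wt cells (17.7-fold lower, 10.4 to 32.6). The Rag1 region had 0.93 tags of accessibility in E2A-KO and 9.56 in Wt cells. Of 25 receptor genes, 3 were nearest to a member, of which Cd38, an ectoenzyme of lymphocytes, had 1.05 tags of accessibility in E2A-KO and 15.61 in Wt cells. PolII was at least 2-fold lower at all 3 (59.2% of all members; 39.7% of all regions). Of 11 cell-cycle and survival genes, 2 were nearest to 3 members. H3K27ac was at least 2-fold lower at 0 of these 3 (65.1% of all members; 37.4% of all regions). Nothing particular to either list is read from counts over 3 regions. Near E2f2, a factor of the cell cycle, H3K4me3 was 40.34 tags in Ebf1-KO and 81.69 in Wt cells.

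Several genes gathered many members: of 362 named nearest genes, 267 had 1 member and 7 had 4 or more, led by Kynu (an enzyme of tryptophan breakdown, 6), Cplx2 (a regulator of vesicle release) and Ica1 (5 each). At the 5 Cplx2 members H3K27me3 was at least 2-fold higher in Ebf1-KO cells at all 5 (19.2% of all members; 16.9% of all regions). The values were low, at 2.20 to 5.05 tags in Ebf1-KO against 0.07 to 1.00 in Wt cells. H3K4me2 (59.8% of all members; 30.3% of all regions) and H3K27ac (65.1%; 37.4%) were lower at all 5. At Ica1, H3K27ac was lower at all 5, but H3K4me3 at 1 (46.3% of all members; 25.2% of all regions). Members of 1 gene share a locus, so nothing further is read from these counts. An Ank2 region had one of the lowest ratios of accessibility, 0.58 tags in E2A-KO and 33.03 in Wt cells.

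Members at least 2-fold higher in Ebf1-KO cells numbered 36 for H3K4me3, 16 for PolII, 10 for H3K4me2 and 5 for H3K27ac, as given above. The intron of Ptger4, a prostaglandin receptor, had 24.02 tags of H3K4me3 in Ebf1-KO and 2.48 in Wt cells, and the intergenic region near Hfe2 77.68 and 24.14 tags. H3K4me2 was 31.89 and 11.17 tags in an intron of Zfpm1, a cofactor of GATA factors, and 35.25 and 13.12 tags in an intron of Kmt2a, a histone methyltransferase. At the region shown for Neu3, H3K4me2 was lower, with 2.16 tags in Ebf1-KO against 13.12 in Wt cells, but PolII was 7.18 and 4.29 tags, and accessibility was 5.01 tags in E2A-KO and 5.79 in Wt cells. At the region shown for Il33, H3K4me2 was 6.95 tags in Ebf1-KO and 68.99 in Wt cells, H3K4me3 3.67 and 48.94, and H3K27me3 18.05 and 4.44. At the region shown for Pydc4, H3K4me3 was 0.31 tags in Ebf1-KO and 11.87 in Wt cells and PolII 1.37 and 8.97.

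The 3 members on chromosome Y, at Ddx3y, Uty and Kdm5d, stood apart. Summed over them, Ebf1-KO and Wt cells had 0.1 and 123.71 tags of H3K4me3, 0 and 31.82 of H3K4me2 and 0 and 33.18 of PolII, but 71.06 and 58.64 of H3K27ac, so the assays do not match in this respect. In ATAC they had 17.49, 11.31 and 5.36 tags in E2A-KO and 37.26, 30.69 and 10.47 in Wt cells. Without them the members' medians were −1.27 for H3K4me2, −0.87 for H3K4me3, −1.34 for H3K27ac and −1.27 for PolII, and E2A-KO ATAC was at least 2-fold lower at 343. The sex of the animals behind each library is not given in the labels used here.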

How the data were processed

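The authors deposited region tables made, per the file headers, by HOMER's annotation step: each value is the signal in a region, as tag counts scaled to a library of 10000000 tags. Reads were processed with Bowtie2 2.3.5, SAMtools 1.9, MACS2 and HOMER 4.10 on mm10 (GRCm38.p5), per the submitters' processing notes. The Fli1 and Ikzf1 peak lists carry the authors' deposited score per peak, and the deposited PLAC-seq contacts carry counts and q-values (used at 0.05). In the Wt ATAC column the header names a pool of 6, while 3 Wt samples are labelled, and nothing states that samples came from separate animals. That header also names a size set to 180, while the E2A-KO header names a pool of 3 without the mitochondrial chromosome. The histone-table regions held 0.55% of E2A-KO ATAC tags and 1.21% of Wt ATAC tags. How far the difference in processing enters the E2A-KO ratios was not tested. Another 2 columns of ATAC values, with no labelled sample, are not analysed here.

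Repeated listings were reduced to distinct regions (22 among the members' 532 listings, of which 8 differed, by at most 0.78 tags). Ratios used a pseudocount of 1, and a region counted as lower or higher at a 2-fold ratio on that scale. Medians carry 95% order-statistic intervals, single values exact Poisson intervals, fold changes exact conditional intervals and shares Wilson intervals. Since each group is 1 column, no test across replicates was made. TMM factors came from edgeR 4.0.16 (R 4.3.3), and the rest was computed with Python 3.11.15, pandas 2.3.3 and SciPy 1.17.1. Ratio and count steps were tested on simulated data.

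The regions, gene lists and comparisons were chosen with earlier results of these data known. Named members were, per measure, the 8 with the largest ratio in each direction among those with at least 20 tags in the larger group (1 per gene), the members nearest to listed genes, the 10 with the highest Wt accessibility and the genes with 4 or more members. Il33, Neu3, Pydc4 and Ddx3y were also named because a stretch of at least 150 bases upstream of their start was available, after their values had been seen.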

Additional observations from a re-analysis of the deposited data

How the results depend on the processing

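Over the members, 108 values were recomputed, which were medians and shares. No median changed direction, and a share has no direction to change. Of the 108 values, 73 stayed within the tolerance. That is the 95% interval of a median or of a share with a peak or contact, and a factor of 1.5 for a share past 2-fold. The other 35 did not. Medians of regions open in both did turn with TMM factors, as given with those results. A pseudocount of 5 gave medians of −0.79 for H3K4me2, −0.45 for H3K4me3, −0.80 for H3K27ac, −0.63 for PolII and −0.83 for E2A-KO ATAC, and shares of members at least 2-fold lower of 25.5% for H3K4me3, 37.1% for H3K27ac, 35.5% for PolII and 36.7% for ATAC, with 5.69% higher for H3K27me3. A pseudocount of 0.5 gave −1.49 for H3K27ac, −1.47 for PolII and −1.57 for ATAC. TMM factors gave −0.73 and 39.6% lower for H3K27ac, −0.75 for PolII, and −0.70 and 36.7% lower for ATAC. Keeping regions of at least 5 tags in the larger group gave −1.70 for H3K4me2, −1.44 for H3K4me3, −1.57 for H3K27ac and −1.85 for PolII, and for H3K27me3 2.28 with 95.8% higher among the 48 left, which this filter selects for a high Ebf1-KO value. Regions of 500 to 1000 bp gave −1.91, −1.28, −1.53 and −1.49 for H3K4me2, H3K4me3, H3K27ac and PolII.

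The share with a Fli1 peak was 14.3% with peaks at or above the median score and 21.2% with the peak centre inside the region. At 500 to 1000 bp it was 34.8% of members, 57.3% of Ebf1-bound regions of the class and 42.8% of regions open in both. At 10 kb or more from any Ebf1-bound region it was 33.0% of members and 45.9% of regions open in both. The Ikzf1 share was 3.33% with peaks at or above the median score and 4.08% at 10 kb or more. At a q of 0.01, 80.2% of members were in a PLAC-seq contact. The causes of these shifts were not tested.

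No paired analysis was possible because each group is 1 pooled or single column, with no numbered replicate columns; leaving out a replicate was not possible for the same reason. Alternatives for the ATAC columns with no labelled sample were not run, and at 10 kb or more no Ebf1-bound region of the class is left to compare. Keeping listings as deposited and leaving out chromosome Y were added after seeing the data. Most members had under 10 tags of Wt accessibility, and having 1 column per genotype and measure limits every comparison to these libraries.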
